A study of Mus musculus with 21 samples.

Results

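The 12 CS-exposed fetal lungs of the series were compared with each other, 8 with lower animal numbers (M121 to M207, F195 to F202) against 4 with higher ones (M443 and M447, F444 and F445), where M stands for male and F for female as in the labels. These are 12 of the 21 lungs on the mRNA arrays. The division was placed at the widest gap in the animal numbers of the labels, after earlier results of the same arrays had been seen, and no measured value decides to which side a lung belongs. Neither the labels nor the methods say what the numbers stand for, so litter, day of section or handling cannot be told apart from them. The methods do mention that the animals came from several experimental batches in different seasons. The 2 groups are called lower-number and higher-number CS lungs below, and each difference is the lower-number minus the higher-number mean of log2 signal.

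All fetuses were WT Balb/c mice at E18.5, shortly before birth, and each gave 1 whole lung on 1 array. Lower-number CS lungs came from the males M121, M191, M205 and M207 and the females F195, F197, F201 and F202, and higher-number CS lungs from the males M443 and M447 and the females F444 and F445. The dams of both groups had inhaled mainstream cigarette smoke (CS) from gestational day 2.5 to 17.5. AIR lungs served only to ask whether the same division of the numbers gave the same differences without smoke, with 3 lower-number lungs (males M141 and M187, F181) and 6 higher-number lungs (males M307, M386 and M421, females F301, F381 and F427). For these the protocol names filtered air, while the sample labels call the mothers untreated. The study took 1 male and 1 female from each litter, so that the lower-number CS lungs came from at least 4 litters and the higher-number CS lungs from at least 2. Littermates are not named, and p-values treat them as separate animals.

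In the last days before birth the mouse lung changes from growth to function. Dividing progenitors of the distal tips leave the cell cycle, type II cells fill with lipid and surfactant proteins, type I cells flatten against capillaries, and the airway epithelium begins to secrete its own products. Genes of the division machinery are therefore known to decrease in late gestation while those of surfactant, lipid synthesis and secretion increase, and the 2 programmes are often read as a measure of how mature a lung is. In whole lung RNA, fewer cells of a type and less RNA per cell cannot be told apart.

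Signal was on a log2 scale, on which a difference of 1 is a 2-fold difference. Array medians of the 12 CS lungs lay between 2.104 and 2.196 and their pairwise correlations between 0.9527 and 0.9709. The Y-linked genes and Xist matched the labelled sex in all 21 lungs. Marker genes of neighbouring organs were high in single lungs. The mean of 15 heart muscle genes was 6.97 in the lower-number F197 and 6.10 in the higher-number M447, against a median of 3.81 over the lower-number and 4.64 over the higher-number CS lungs. Thymocyte genes reached 5.31 in M121 and 3.88 in F197, and oesophageal genes 3.95 in M121 and 4.19 in the higher-number M443. The 4 lungs F197, M121, M447 and M443 were high in at least 1 of these lists, so the lower-number group kept 6 lungs and the higher-number group 2 without them.

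**Figure D1:**
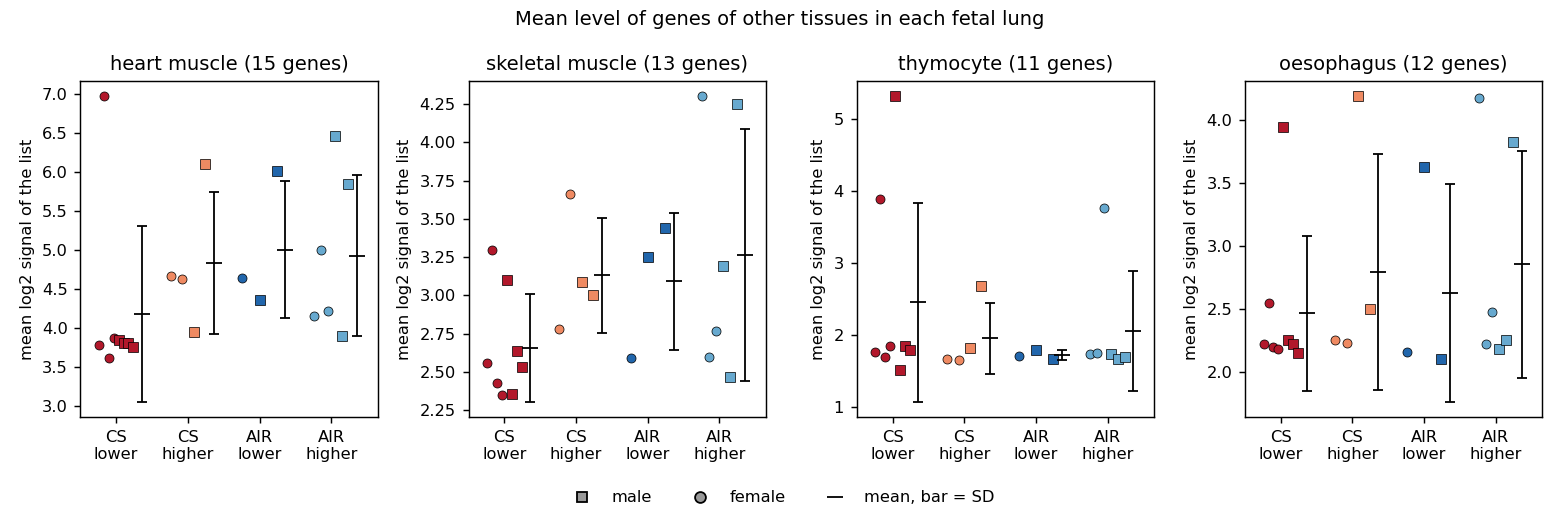
Mean log2 signal of heart muscle, skeletal muscle, thymocyte and oesophagus genes (y axis) in each lung of the 4 groups (x axis), with squares for males, circles for females and the mean with SD beside each group. Single lungs stand far above the rest of their group, such as 6.97 for heart muscle genes in 1 lower-number CS lung and 4.19 for oesophageal genes in 1 higher-number CS lung.

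Across 22179 genes, 600 (2.71%) were higher and 667 (3.01%) were lower in lower-number CS lungs at the threshold of the study, which asked for a change of more than 1.2-fold and an unadjusted p below 0.05 in limma. No gene passed a false discovery rate of 10%, and the lowest adjusted p of limma was 0.293, while 1499 genes (6.76%) had an unadjusted p under 0.05. In this comparison each gene named below therefore passed, where it did, the unadjusted threshold only. For single genes an exact permutation test over all 495 ways of drawing 8 and 4 lungs was run as well, in which 0.00202 is the smallest two-sided p. In 83 genes (0.374%) every lower-number CS lung lay above every higher-number one, and in 91 (0.41%) every one lay below. The median difference over all genes was 0.01. Spread within the groups was similar, with a median SD per gene of 0.222 in the lower-number and 0.199 in the higher-number CS lungs.

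Genes of mitosis were higher in lower-number CS lungs, in which all 8 lungs had a higher mean of the 52 genes than any of the 4 higher-number lungs. The threshold was passed upwards by 36 of 52 genes and downwards by 0, beside 2.71% and 3.01% of all genes. The median difference was 0.48 (all genes, 0.01), and 51 of the 52 differences were positive. The list mean was 4.76, 5.04 and 5.56 as lowest, median and highest of the lower-number CS lungs, against 4.63, 4.60, 4.63 and 4.69 in the higher-number lungs of males M443 and M447 and females F444 and F445. The lower-number lungs were thus spread over a wide range (SD, 0.309, n = 8) and the higher-number lungs over a narrow one (SD, 0.035, n = 4). The highest means were those of F195 (5.56), F201 (5.48) and M205 (5.35), and the lowest of this group was that of M207 (4.76).

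Single members showed this pattern, given as lowest, median and highest of the lower-number lungs and, here and below, M443, M447, F444 and F445 in this order for the higher-number ones. Kif11, the kinesin that pushes the spindle poles apart, had 4.87, 5.24 and 5.67 (lowest, median, highest) in lower-number CS lungs, against 4.55, 4.43, 4.72 and 4.58 in higher-number ones. The groups did not overlap, and the difference was 0.70 ± 0.16 (SE of limma; adjusted p = 0.539; exact permutation p = 0.00202). Mki67, whose protein coats the chromosomes of cycling cells and is the common marker of proliferation, had 6.90, 7.41 and 7.79 in lower-number lungs, against 6.50, 6.73, 6.77 and 6.89. Its lowest lower-number lung, M207, stood just above the highest higher-number lung, F445, and the difference was 0.65 ± 0.18 (adjusted p = 0.604; exact permutation p = 0.00606). In Kif20b, a kinesin of cytokinesis, 4.89, 5.19 and 5.79 in lower-number lungs stood against 4.53, 4.37, 4.73 and 4.74, again without overlap (difference 0.65 ± 0.16). Top2a, the topoisomerase that disentangles sister chromatids, did overlap, with 6.32, 6.98 and 7.43 against 6.30, 6.48, 6.36 and 6.55 (0.51 ± 0.19; exact permutation p = 0.0303).

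In 10 mitosis genes no lung of one group overlapped the other (0.374% of all genes), among them Ect2, which directs the cleavage furrow (0.75), Kif15 (0.72), Kif23 (0.66), the checkpoint kinase Ttk (0.61) and Ube2c, a conjugating enzyme of the anaphase-promoting complex (0.57). The largest difference of the list was that of Cdc25c, the phosphatase that activates CDK1, at 0.82 ± 0.25. It overlapped between the groups, with 3.59 in the lower-number F202 and 3.61 in the higher-number M443. Of the 16 members that did not pass the threshold, Aurka had 0.53, Plk1 0.38, Aurkb 0.36 and Kifc1 -0.02. Without the 4 lungs high in other-tissue genes, 18 of 52 passed (6 lungs against 2, an alternative added after seeing the data), and the median difference was 0.49. Mki67 (0.53) and Top2a (0.43) then did not pass.

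Thymocytes divide as well, and all 11 thymocyte genes had positive differences (median 0.55), although 0 of 11 passed the threshold. Their mean lay between 1.51 and 5.31 in lower-number CS lungs, with a median of 1.82, against 1.65 to 2.68 in higher-number ones, with a median of 1.74. The high values were those of M121, whose mitosis mean (5.13) was above the median of its group (5.04), and of F197, whose mitosis mean (4.84) was below it. With the thymocyte mean as a covariate, 38 of 52 mitosis genes passed and the median was 0.52. This covariate was high mainly in M121 and F197, both lower-number lungs, so the fit alone cannot decide the part of thymocytes. That part was not tested otherwise.

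Genes of DNA replication had a smaller median difference. Of 44 genes, 11 were higher and 0 lower at the threshold of the study, beside 2.71% and 3.01% of all genes, and the median difference was 0.25. The list mean was 4.12, 4.41 and 4.66 in lower-number CS lungs, against 4.11, 4.13, 4.20 and 4.17 in higher-number ones, so that F202 (4.12) and F197 (4.19) lay within the higher-number range. Clspn, the claspin that relays replication stress to the checkpoint, had 2.90, 3.55 and 3.77 in lower-number lungs, against 2.71, 2.91, 3.01 and 2.83. Only F202 overlapped with the higher-number lungs, and the difference was 0.60 ± 0.15 (adjusted p = 0.539; exact permutation p = 0.00606). Dut, which removes dUTP from the nucleotide pool, had 5.21, 5.24 and 6.14 against 4.90, 4.70, 5.04 and 4.66. Its groups did not overlap (0.55 ± 0.17; exact permutation p = 0.00202), although a second probe set of Dut differed by only 0.20, and the highest value was that of M121, the lung with the highest thymocyte mean.

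Subunits of the replicative helicase were divided, with Mcm3 (0.39), Mcm5 (0.39) and Mcm6 (0.40) past the threshold and Mcm2 (0.20 ± 0.16), Mcm4 (0.20) and Mcm7 (0.26) not. Mcm2 had 4.62, 4.84 and 5.38 in lower-number CS lungs, against 4.44, 4.66, 4.67 and 5.09 in higher-number ones, and the groups overlapped over most of their range. Pcna, the sliding clamp, was at 7.03, 7.22 and 7.74 against 6.89, 7.03, 6.97 and 7.08 (0.26 ± 0.14; exact permutation p = 0.0727). Both were highest in M121, in which thymocyte genes stood at 5.31. With the thymocyte mean as a covariate 11 members passed, as many as without it. Without M443, 5 members passed, and without the 4 lungs high in other-tissue genes 4 did.

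The promoters of the mitosis and the DNA replication gene with the lowest p are shown because the 2 lists are known to be switched on partly by different elements. The CHR elements TTTGAA and TTTAAA are bound by the DREAM and MuvB complexes and CCAAT by NF-Y, each searched on both strands (as TTCAAA and ATTGG on the reverse, with TTTAAA its own reverse). Both windows run from 250 bases before to 50 bases after the annotated start in RefSeq on GRCm38.p6, that of Kif11 on chromosome 19, plus strand (chr19:37376132-37376431), and that of Clspn on chromosome 4, plus strand (chr4:126556730-126557029). Capitals mark the motif letters.
Kif11: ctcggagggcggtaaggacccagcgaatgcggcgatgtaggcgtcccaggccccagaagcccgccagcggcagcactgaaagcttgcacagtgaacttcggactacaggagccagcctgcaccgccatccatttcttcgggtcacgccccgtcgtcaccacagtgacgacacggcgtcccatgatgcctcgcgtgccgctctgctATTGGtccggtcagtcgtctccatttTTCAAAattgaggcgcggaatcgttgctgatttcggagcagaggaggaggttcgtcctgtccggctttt
Clspn: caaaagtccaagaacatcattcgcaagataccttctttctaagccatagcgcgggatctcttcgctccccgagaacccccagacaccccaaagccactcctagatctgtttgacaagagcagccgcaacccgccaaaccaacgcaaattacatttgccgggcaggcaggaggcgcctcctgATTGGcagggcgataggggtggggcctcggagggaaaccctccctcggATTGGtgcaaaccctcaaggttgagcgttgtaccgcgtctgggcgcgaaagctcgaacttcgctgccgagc
In the Kif11 window TTTGAA lay at position 232 and CCAAT at position 206, both on the reverse strand and counted from the first base, and TTTAAA was not among the letters. In the Clspn window CCAAT lay at positions 182 and 230 on the reverse strand, with neither CHR element among the letters. Over all 32851 promoter windows of this length, 17.9% held TTTGAA, 13.2% TTTAAA and 37.4% CCAAT. Among the 46 mitosis genes with a window TTTGAA was found in 31 (67.4%) and CCAAT in 33 (71.7%), and among 37 DNA replication genes in 5 (13.5%) and 23 (62.2%). TTTAAA was found in 10 mitosis (21.7%) and 3 DNA replication genes (8.11%). These matches describe letters only.

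**Figure D2:**
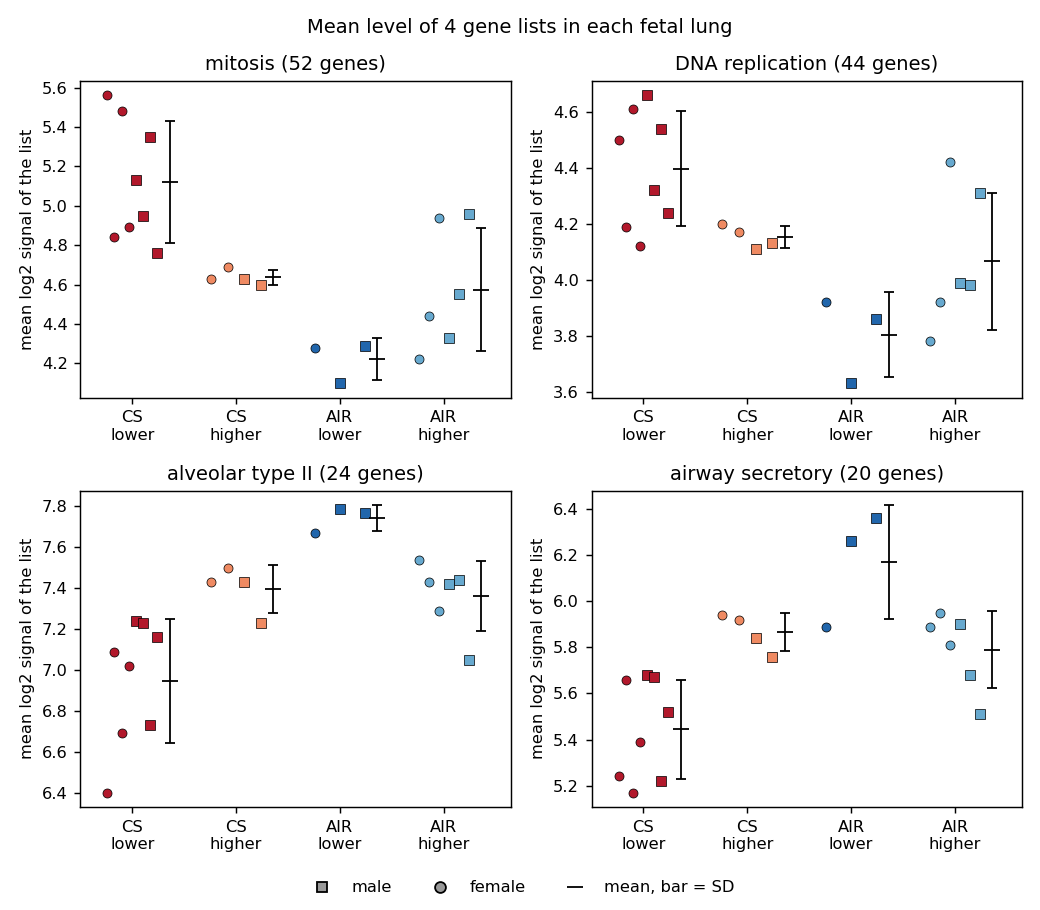
Mean log2 signal of the mitosis, DNA replication, alveolar type II and airway secretory genes (y axis) in each lung (squares, males; circles, females), by group (x axis), with the mean and SD beside each group. The mitosis mean of all 8 lower-number CS lungs (4.76 to 5.56) lay above that of the 4 higher-number CS lungs (4.60 to 4.69), and the secretory mean lay below (5.17 to 5.68 against 5.76 to 5.94).

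Regulators of the cell cycle moved in part. Of 25 E2F, MYB and DREAM regulators 6 were higher and 0 lower, beside 2.71% and 3.01% of all genes, with a median of 0.17. Ezh2, the histone H3 lysine methyltransferase and a known E2F target, had 6.07, 6.34 and 6.74 in lower-number CS lungs, against 5.97, 5.87, 5.74 and 5.96 in higher-number ones, without overlap (0.48 ± 0.14; exact permutation p = 0.00808). The repressor E2f6 had 3.30, 3.78 and 4.04 against 2.93, 2.92, 3.39 and 3.61 (0.55 ± 0.16). Mybl2, the B-Myb that completes the activating complex of mitotic genes, was higher by 0.54 ± 0.19 in the brighter of its 2 probe sets and by 0.19 in the other. The atypical repressors E2f7 (0.14 ± 0.13) and E2f8 (0.24 ± 0.16) did not pass the threshold.

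Among 11 genes of G1 cyclins and MYC, 2 were higher and 0 lower, beside 2.71% and 3.01% of all genes, with a median of 0.11. Cdk6, the G1 kinase partner of the D cyclins, had 5.15, 5.33 and 5.63 in lower-number CS lungs, against 5.06, 4.89, 4.52 and 5.0, and the groups did not overlap (0.46 ± 0.12; exact permutation p = 0.00202). Cdc25a was higher by 0.30 ± 0.13 with overlap, Ccnd1 had -0.26 ± 0.12 and Myc 0.11 ± 0.19. Of 14 cell cycle inhibitors 2 were lower and 0 higher, beside 3.01% and 2.71% of all genes. Their median was 0.04, and 9 of the 14 differences were positive. Cdkn2b, the p15 inhibitor of CDK4 and CDK6, had 4.50, 4.71 and 4.88 in lower-number lungs, against 5.03, 4.91, 5.17 and 4.92, without overlap (-0.31 ± 0.11; exact permutation p = 0.00606). Gas1 was lower by a fold just past the threshold (-0.26 ± 0.12). None of 13 oncofetal genes passed, Igf2bp3 being nearest (0.26 ± 0.11; p of limma 0.0317, adjusted p = 0.73).

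In the IGF axis, which carries the main growth signal of the fetus, the calls fell on binding proteins and not on the ligands. Of 19 genes 1 was higher and 3 were lower, beside 2.71% and 3.01% of all genes. Igfbp2, a binding protein abundant in fetal tissues, had 3.31, 4.30 and 4.89 in lower-number CS lungs, against 2.60, 3.76, 3.31 and 3.52 in higher-number ones (0.85 ± 0.30; exact permutation p = 0.0384). Igfbp7 had 6.44, 6.73 and 6.97 against 7.06, 7.04, 7.03 and 7.11, without overlap (-0.36 ± 0.12; exact permutation p = 0.00808). Igfbp6 was lower by 0.51 on the log2 scale, also without overlap, and Igfbp3, the main carrier of circulating IGF1, by 0.64 ± 0.27 with overlap (3.81, 4.47 and 5.30 against 4.70, 5.31, 5.0 and 5.62). Igf1 had 4.07, 4.39 and 4.91 against 4.75, 4.06, 4.26 and 4.03 (0.17 ± 0.18; exact permutation p = 0.36), and Igf2 0.17 ± 0.11.

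Marker genes of type II cells, the source of surfactant, were at lower levels in the whole lung RNA of lower-number CS lungs. Of 24 genes 11 were lower and 0 higher at the threshold, beside 3.01% and 2.71% of all genes, and the median difference was -0.44. The list mean was 6.40, 7.05 and 7.24 in lower-number CS lungs, against 7.43, 7.23, 7.43 and 7.50 in higher-number ones. M121 (7.24) and M191 (7.23) reached the level of the higher-number M447 (7.23), and the others lay below it. The 3 lowest means were those of F195 (6.40), F201 (6.69) and M205 (6.73), the same 3 lungs that had the highest mitosis means.

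Sftpb, the surfactant protein without which newborns cannot breathe, had 8.42, 9.01 and 9.47 in lower-number CS lungs, against 9.57, 9.68, 9.61 and 9.67 in higher-number ones. The groups did not overlap, and the difference was -0.63 ± 0.17 (adjusted p = 0.559; exact permutation p = 0.00606). Napsa, the protease that processes the SP-B precursor, had 7.29, 7.57 and 7.76 against 8.07, 7.93, 7.98 and 8.04, without overlap (-0.46 ± 0.10; exact permutation p = 0.00202). Sftpd, a collectin of lung defence, was at 3.28, 3.58 and 4.55 against 4.78, 4.45, 4.24 and 4.70, where M121 overlapped with the higher-number range (-0.86 ± 0.23). Sftpc, the marker of the lineage from early in development, was near the top of the scale with 11.21, 11.40 and 11.55 against 11.40, 11.49, 11.52 and 11.62, and did not pass the threshold (-0.12 ± 0.10; exact permutation p = 0.143).

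The calcium-binding S100g had the largest difference of the list (-1.39 ± 0.51), with 5.03, 7.14 and 8.06 in lower-number lungs, against 8.31, 7.83, 8.14 and 8.23. Its lowest lungs were again F195 (5.03), M205 (5.63) and F201 (5.77), while M121 (8.06) and F197 (7.85) fell within the higher-number range. The chemokine Cxcl15 (-0.80) and Il33 (-0.57) did not overlap between the groups. Lower were also the phosphate transporter Slc34a2 (-0.55), Sftpa1 (-0.53), the lamellar body lipid transporter Abca3 (-0.45) and Lpcat1 (-0.27), whereas Chil1 (-1.19), Lamp3 (-0.43) and Etv5 (0.07) did not pass. Lyz2 (-0.66) and its close copy Lyz1 (-1.52 ± 0.59), the lysozymes, may share probes and are uncertain apart from each other. Lyz1 had 5.71, 8.55 and 9.53 against 9.38, 9.42, 9.63 and 10.02.

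Type I cell and fluid clearance genes were lower in part. Of 17 type I genes 5 were lower and 1 (Sema3e, 0.33) was higher, beside 3.01% and 2.71% of all genes, with a median of -0.31. Ager, the membrane receptor of type I cells, had 9.10, 9.49 and 9.64 in lower-number CS lungs, against 9.75, 9.69, 9.78 and 9.89, without overlap (-0.36 ± 0.12; exact permutation p = 0.0121). Emp2 was lower by 0.34 ± 0.11 and Rtkn2 by 0.84 (by 0.41 and 0.26 in its other probe sets). Of 12 genes of fluid clearance, which empties the air spaces at birth, 4 were lower and 0 higher (median -0.11), beside the same shares. The water channel Aqp1 had 4.68, 5.41 and 5.77 against 6.13, 5.78, 6.10 and 5.90 (-0.62 ± 0.17; exact permutation p = 0.00606), its groups just separate. All 3 subunits of the epithelial sodium channel were lower, Scnn1a by 0.41 ± 0.13, Scnn1b by 0.50 and Scnn1g, which is also counted with type I cells, by 0.40.

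Airway secretory genes were lower in all 8 lower-number CS lungs by their mean. Of 20 genes 11 were lower and 0 higher, beside 3.01% and 2.71% of all genes, with a median of -0.42. The list mean was 5.17, 5.46 and 5.68 in lower-number lungs, against 5.84, 5.76, 5.94 and 5.92 in higher-number ones. Cyp2f2, the cytochrome of club cells, had 6.89, 7.27 and 7.65 against 8.16, 7.72, 7.70 and 7.69, without overlap (-0.50 ± 0.16; exact permutation p = 0.00808), and its second probe set differed by -0.48. Scgb3a1, a secretoglobin of the large airways, had 4.84, 6.27 and 7.89 against 7.27, 7.51, 8.01 and 7.70 (-1.36 ± 0.46), with only F197 inside the higher-number range. The defining club cell product Scgb1a1 was at 7.13, 8.62 and 9.35 against 9.11, 8.94, 9.22 and 9.42 and did not pass the threshold (-0.74 ± 0.37; exact permutation p = 0.099). Reg3g (-0.85), Muc5b (-0.67) and Aldh1a1 (-0.42) were lower too. Without F445, 6 secretory genes passed, and 7 did once the heart muscle mean was a covariate.

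Ciliated cell genes were nearly level, with 1 of 25 higher and 0 lower, beside 2.71% and 3.01% of all genes, and a median of -0.07. The one was Mcidas, which starts the programme of multiciliated cells, with 3.53, 3.80 and 4.55 in lower-number CS lungs, against 3.33, 3.30, 3.15 and 3.57 (0.61 ± 0.18; exact permutation p = 0.0121). Foxj1, the later regulator of motile cilia, was at 4.01 ± 0.18 in lower-number (SD, n = 8) and 4.04 ± 0.19 in higher-number CS lungs (SD, n = 4).

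Lipid synthesis held the largest difference past the threshold. Scd1, the desaturase that makes monounsaturated fatty acids, had 3.17, 5.43 and 6.38 in lower-number CS lungs, against 7.03, 7.36, 7.19 and 7.88 in higher-number ones. The groups did not overlap, and the signal was 4.90-fold higher in the higher-number lungs (lower minus higher -2.29 ± 0.52; adjusted p = 0.539; exact permutation p = 0.00606). Among lower-number lungs it was lowest in F195 (3.17), M205 (3.82) and F201 (4.52). Of 21 genes of fatty acid and phospholipid synthesis 4 were lower and 0 higher, beside 3.01% and 2.71% of all genes. The median was -0.11, and 8 of the 21 differences were positive. Fads1, a desaturase of polyunsaturated fatty acids, had 5.61, 5.81 and 5.97 against 6.39, 6.21, 6.06 and 6.25 (-0.44 ± 0.10; exact permutation p = 0.00202), Fasn differed by -0.52 ± 0.13 without overlap and Acly by -0.27.

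Of 18 genes of cholesterol synthesis and its control 8 were lower and 0 higher, beside 3.01% and 2.71% of all genes. The median was -0.31. Insig1, which holds the SREBP regulators back when sterols are plentiful and is itself one of their targets, had 6.19, 6.42 and 6.95 in lower-number CS lungs, against 7.30, 7.26, 7.54 and 7.42 in higher-number ones. The groups stood well apart (-0.87 ± 0.15; adjusted p = 0.299; exact permutation p = 0.00202). Nsdhl, an enzyme of sterol demethylation, had 3.76, 4.15 and 4.39 against 4.73, 4.61, 4.46 and 4.54, without overlap (-0.49 ± 0.13). Hmgcs1 (-0.42), Fdps (-0.39), Sqle (-0.38) and the regulator Srebf2 (-0.36) were lower, whereas Srebf1 (-0.28 ± 0.15) and Dhcr7 (-0.01) did not pass. Without F444, 5 cholesterol genes passed, and the same number did without F445.

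**Figure D3:**
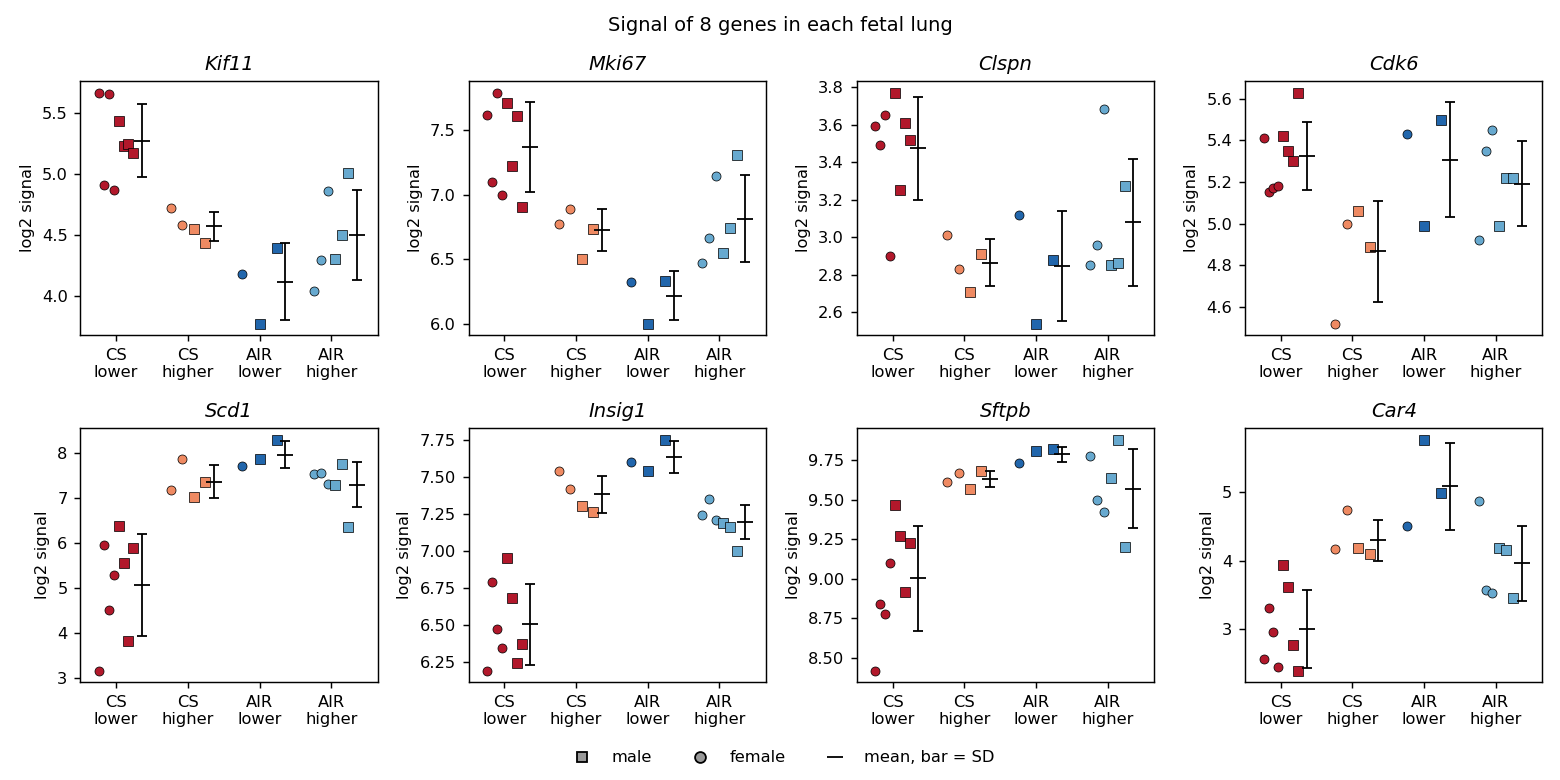
Log2 signal (y axis) of 4 genes of division (upper row) and 4 of lipid synthesis, surfactant and capillaries (lower row) in each lung (squares, males; circles, females), by group (x axis), with the mean and SD beside each group. Lower-number CS lungs lay between 3.17 and 6.38 for Scd1, below all 4 higher-number CS lungs (7.03 to 7.88), and between 4.87 and 5.67 for Kif11, above all 4 (4.43 to 4.72).

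In the vessels, 4 of 26 endothelial genes were lower and 1 (Tie1, 0.36) was higher, beside 3.01% and 2.71% of all genes, with a median of -0.10. Car4, a carbonic anhydrase on the surface of lung capillaries, had 2.40, 2.87 and 3.93 in lower-number CS lungs, against 4.19, 4.09, 4.17 and 4.74, without overlap (-1.30 ± 0.28; adjusted p = 0.539; exact permutation p = 0.00404). Apln was lower by 0.68 ± 0.22 with overlap. Of 19 genes of alveolar mesenchyme 3 were lower and 0 higher, beside 3.01% and 2.71% of all genes, with a median of -0.06. Fbln5, a scaffold of elastic fibres, had 6.37, 6.70 and 6.79 against 6.76, 7.30, 6.96 and 7.12 (-0.38 ± 0.12), and Inmt, a methyltransferase of lung stroma, 2.33, 3.04 and 4.56 against 3.65, 4.18, 4.29 and 4.87 (-1.02 ± 0.41; exact permutation p = 0.0545). Eln itself, elastin, was at 8.43 ± 0.26 in lower-number (SD, n = 8) and 8.63 ± 0.20 in higher-number CS lungs (SD, n = 4) and did not pass.

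Matrix genes went both ways, with 3 of 19 higher and 3 lower, beside 2.71% and 3.01% of all genes. Higher were Fmod (0.70), the growth factor Mdk (0.61 ± 0.20) and Fbn2 (0.50), the fibrillin of fetal tissue. Lower were Lum (-0.86), Cthrc1 (-0.44) and Dcn, decorin, with 4.97, 5.79 and 6.67 against 6.86, 6.99, 6.73 and 6.60 (-0.97 ± 0.26; exact permutation p = 0.0121). Vcan, a proteoglycan of fetal stroma, had 0.39 ± 0.26. Among 28 regulators of lung development 1 was higher and 1 lower, close to the 2.71% and 3.01% of all genes. Foxp2, a factor of the distal epithelium, had 5.39, 6.30 and 6.78 against 5.74, 5.41, 5.79 and 5.76 (0.57 ± 0.23; exact permutation p = 0.0505), and Cebpa, a factor of type II cell maturation, 4.25, 4.47 and 4.95 against 5.13, 4.63, 4.82 and 5.10 (-0.44 ± 0.14; exact permutation p = 0.0141).

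Lists that could follow exposure, hormones, oxygen or time of day held at most 1 call in each direction. In lists this short, 1 call cannot be told from the 2.71% higher and 3.01% lower of all genes. A part of exposure, hormones, oxygen or time of day in the division was not tested. Of 15 targets of the aryl hydrocarbon receptor and NRF2, the sensors of smoke constituents, 1 was lower and 0 higher. It was Cyp1b1, with 1.94, 2.11 and 2.21 in lower-number CS lungs, against 2.31, 2.23, 2.68 and 2.41, near the bottom of the scale and without overlap (-0.30 ± 0.10). The 14 hypoxia targets had a median of 0.25 with 12 positive differences, close to the median of the DNA replication genes, but 1 call in each direction. Pgk1 was higher (0.46 ± 0.19) and Vegfa lower (-0.27 ± 0.11), and F195 alone stood out with a list mean of 6.08, beside 5.35 to 5.61 in the other lower-number lungs and 5.21 to 5.41 in the higher-number ones. Glucocorticoid targets had 1 of 17 lower (Errfi1, -0.36 ± 0.16), immediate-early genes 1 of 16 (Klf4, -0.42 ± 0.12), macrophage genes 1 of 12 (Cx3cr1, -0.32 ± 0.10) and clock genes 0 of 15.

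Among the 12 largest differences upwards at the threshold were Cdc25c, Ect2 and Kif15 of the mitosis list, and Sgo2a (0.84 ± 0.21) and Dlgap5 (0.74 ± 0.19), which are on none of the lists. Sgo2a, a shugoshin that guards centromere cohesion, did not overlap, with 4.14, 4.56 and 5.30 in lower-number CS lungs, against 3.36, 3.79, 3.82 and 4.09. The others were Crh, the corticotropin-releasing hormone (0.89 ± 0.30), the fetal claudin Cldn6 (0.87 ± 0.37), Igfbp2, Mnd1, known from meiotic recombination (0.84 ± 0.26), the non-coding RNA Lockd (0.83 ± 0.19), the monocarboxylate transporter Slc16a4 (0.79 ± 0.19) and Shcbp1 (0.73 ± 0.27). Crh had 2.68, 3.53 and 4.68 against 2.79, 2.18, 2.62 and 2.97 and was highest in F195.

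Among the 12 largest downwards were Scd1, Lyz1, S100g, Scgb3a1 and Car4. Of the rest, Acta1 (-1.52 ± 0.65), Myh8 (-1.31 ± 0.38) and Hspb7 (-1.18 ± 0.53) are muscle genes. A second probe set of Myh8 differed by only -0.51. Skeletal muscle genes as a list had a median of -0.42 with 13 of 13 differences negative and 2 past the threshold. Heart muscle genes had a median of -0.49 with 14 of 15 negative and 1 past it. Of all genes, 3.01% passed the threshold downwards. The list means overlapped between lower-number and higher-number CS lungs, for skeletal muscle with 2.35 to 3.30 against 2.78 to 3.66. For heart muscle they were 3.61 to 6.97 against 3.94 to 6.10, with the highest value in the lower-number F197. The part of muscle RNA in these 3 genes was not tested. The remaining 4 were Gdpd2 (-1.41 ± 0.38), Trim43c (-1.27 ± 0.30), Stfa3 (-1.14 ± 0.21) and the chemokine Cxcl3 (-1.05 ± 0.34). Stfa3 did not overlap, with 2.55, 3.22 and 3.77 against 4.65, 4.20, 4.45 and 4.13. Stfa3 and Trim43c belong to families of near-identical genes and are uncertain. The largest difference of all genes, past the threshold or not, was that of Nppa, the atrial natriuretic peptide of heart muscle, which did not pass (-2.65).

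Within each sex 4 lungs stood against 2, and the medians of the mitosis, DNA replication, type II, type I, secretory and cholesterol lists had the same sign in both sexes. Among the lists for which it was not the same were the aryl hydrocarbon receptor and NRF2 targets (0.15 in males and -0.17 in females), cell cycle inhibitors (0.13 and -0.10) and clock genes (-0.03 and 0.10). In males 780 genes (3.52%) were higher and 758 (3.42%) lower at the threshold, and in females 405 (1.83%) and 770 (3.47%). Of the mitosis genes 12 were higher in males and 19 in females, with none lower, and the medians were 0.43 and 0.52. Of the type II genes 2 were lower in males and 15 in females (medians -0.22 and -0.62), of the secretory genes 2 and 10 (-0.18 and -0.57), of the cholesterol genes 3 and 8 (-0.12 and -0.36) and of the type I genes 0 and 7 (-0.19 and -0.44). DNA replication genes had more calls in males, with 7 higher in males and 2 in females (0.32 and 0.13). The difference between the sexes itself passed a false discovery rate of 10% in limma for 0 genes (1173 at an unadjusted p under 0.05, lowest adjusted p = 0.329), so these counts do not show that the sexes differed. Within a sex the same rate was passed downwards by Trim43c in males (-1.94, adjusted p = 0.0159) and by Olfr1487 (-1.53) and Irf7 (-1.45, both adjusted p = 0.0595) in females, and upwards by 0 genes. With 4 against 2 lungs, 15 regroupings exist and the exact permutation p cannot go below 0.0667.

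**Figure D4:**
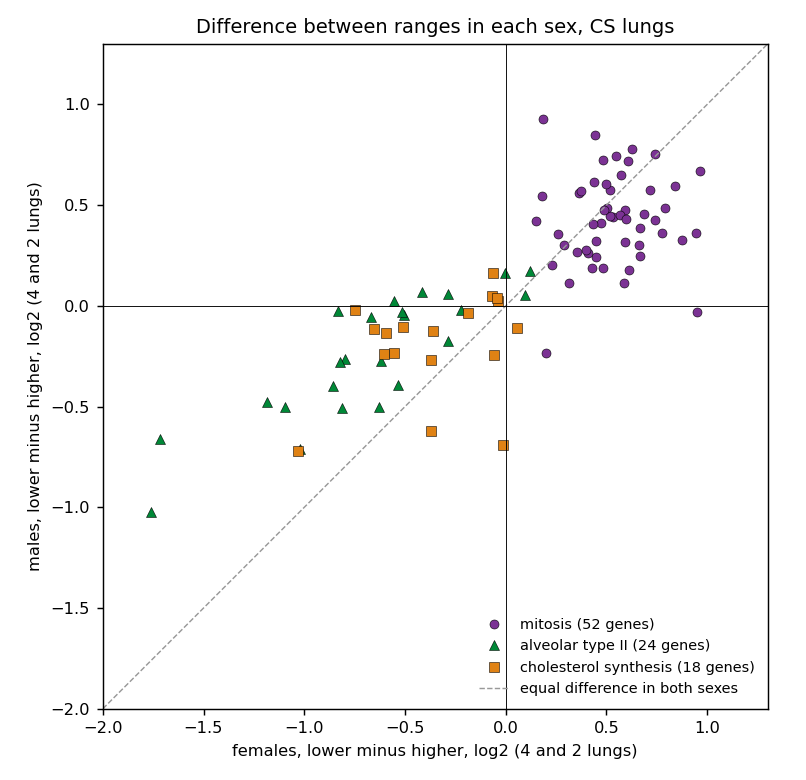
Difference of lower-number minus higher-number CS lungs (log2) in males (y axis) against females (x axis) for each gene of mitosis (circles), alveolar type II cells (triangles) and cholesterol synthesis (squares), with 4 against 2 lungs in each sex and a dashed line of equal difference. Mitosis genes had a median of 0.43 in males and 0.52 in females, type II genes -0.22 and -0.62.

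The same division of the AIR lungs gave medians of the opposite sign for the mitosis, DNA replication, type II, type I, secretory, fatty acid and cholesterol lists. The sign was the same as in CS lungs for other lists, among them skeletal muscle (-0.42 in CS and -0.17 in AIR lungs), oesophageal (-0.17 and -0.20), fetal matrix (-0.10 and -0.06) and clock genes (0.06 and 0.22) and cell cycle inhibitors (0.04 and 0.03). Over all genes, 728 (3.28%) were higher and 396 (1.79%) lower in lower-number than in higher-number AIR lungs. Of the 52 mitosis genes 0 were higher and 13 lower there (median -0.35), and of the 24 type II genes 12 were higher and 0 lower (median 0.36). The mitosis mean was thus 5.12 ± 0.31 in lower-number (SD, n = 8) and 4.64 ± 0.04 in higher-number CS lungs (SD, n = 4), beside 4.23 ± 0.11 in lower-number (SD, n = 3) and 4.57 ± 0.31 in higher-number AIR lungs (SD, n = 6). For the type II mean the order was 6.94 ± 0.30 and 7.40 ± 0.11 in CS lungs, beside 7.74 ± 0.06 and 7.36 ± 0.17 in AIR lungs, and for the secretory mean 5.44 ± 0.22 and 5.86 ± 0.08, beside 6.17 ± 0.25 and 5.79 ± 0.17. For all 3 lists the means of the higher-number lungs of both exposures lay between those of the lower-number lungs, with CS at one end and AIR at the other. Single higher-number AIR lungs did not keep to this order. The mitosis means of M421 (4.96) and F427 (4.94) lay above all higher-number CS lungs (4.60 to 4.69), and the others (4.22 to 4.55) below. M421 also fell within the lower-number CS range for type II (7.05) and secretory genes (5.51), whereas F427 did not (7.29 and 5.81).

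**Figure D5:**
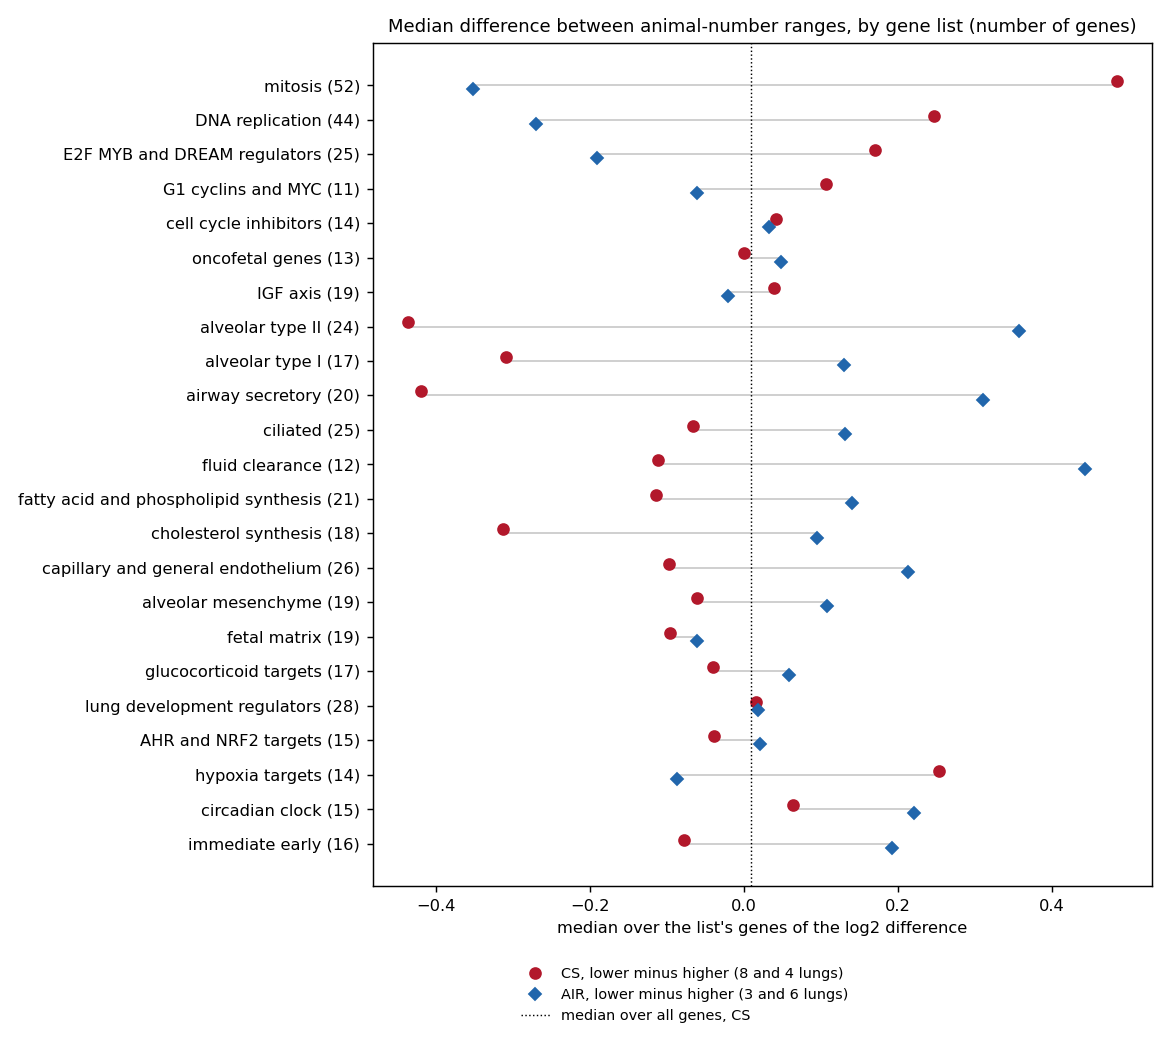
Median over the genes of each list (y axis, number of genes in brackets) of the log2 difference between lower-number and higher-number lungs (x axis), in CS lungs (circles) and AIR lungs (diamonds), with a dotted line at the median of all genes in CS lungs. The medians lay on opposite sides of zero for mitosis (0.48 in CS and -0.35 in AIR lungs) and type II genes (-0.44 and 0.36).

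The difference between the CS and the AIR division was tested over all 21 arrays and passed a false discovery rate of 10% for 1 gene upwards (0.00451%) and 15 downwards (0.0676%). This test carries the limits named above, since the higher-number AIR and CS lungs had different number ranges. The lowest adjusted p was that of Insig1 (difference -1.31 ± 0.19, adjusted p = 0.0447), with 7.54, 7.75 and 7.60 in lower-number and 7.0, 7.20 and 7.35 (lowest, median, highest) in higher-number AIR lungs, beside the CS values above. In Insig1 the lower-number CS lungs alone lay below all other lungs of the series. It was followed by Hdc, which makes histamine (-1.47 ± 0.23, adjusted p = 0.0474), Acoxl (-1.04 ± 0.17, adjusted p = 0.0532), and Tcf19 and S100a8 (0.93 ± 0.16 and -1.62 ± 0.28, both adjusted p = 0.0606). Tcf19, a gene expressed from G1 to S phase, was the one gene upwards, with means of 4.92 and 4.69 in lower-number and higher-number CS lungs and 3.91 and 4.61 in lower-number and higher-number AIR lungs. Klf4 (-1.05 ± 0.18), Sftpd (-1.68 ± 0.32) and Car4 (-2.41 ± 0.46, adjusted p = 0.0999) also passed.

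Of the list members these were Insig1, Klf4, Sftpd, Il33, Pon1 and Car4, and 0 of 52 mitosis and 0 of 44 DNA replication genes. These calls depended on single lungs, of which the higher-number CS and the lower-number AIR ones were left out in turn. Of 40543 probe sets 19 passed, and 0 did without the higher-number CS M443, F444 or the AIR M187, 2 without the CS F445 or the AIR M141, 6 without the AIR F181 and 9 without the CS M447. The 3 lower-number AIR lungs came from at least 2 litters.

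Of 72 named genes past the threshold for the CS lungs, 51 passed without any 1 lung and 21 did not pass without at least 1. A single lung decided Cdkn2b (-0.26 without F444), Cyp1b1 (-0.21 without F444), Igfbp2 (0.62 without M443), Top2a (0.47 without M443), Foxp2 (0.49 without M447) and Lyz1 (-1.38 without F445). Inmt was lost without F444 (-1.01) or F445 (-0.81), Shcbp1 without M443 (0.61) or M447 (0.65), and Igfbp3 without M205 (-0.56), M447 (-0.59) or F445 (-0.49). Acta1, Hspb7, Cldn6, Cdc25a, Gas1, Errfi1, Pgk1 and Vegfa each lost the call without any of at least 3 lungs. All kept their direction.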

How the data were processed

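Whole lungs of 21 fetuses were hybridised by the study to Affymetrix Mouse Gene ST 2.1 arrays. The authors made the deposited log2 signal with RMA (Affymetrix Expression Console 1.3.0.187). Of 41345 probe sets, 802 redundant ones were left out and 40543 tested with limma 3.58.1 (R 4.3.3), with Benjamini-Hochberg adjustment over all of them. Calls used the study's absolute fold over 1.2 with an unadjusted p under 0.05 (without multiple testing control) or a false discovery rate of 10%. Each of 22179 genes with 1 symbol was read from its probe set with the highest mean. Medians and counts describe 32 lists (595 of 634 genes found). Exact permutation tests over lungs were two-sided (Python 3.11.15, numpy 2.4.6). The fits were tested on simulated data.

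Named were the 12 largest called differences per direction without predicted models, the 2 genes of lowest p in every list, Igf1 and Igfbp3, the 5 genes with the lowest p for the difference between CS and AIR, sex genes and defining members. Others were chosen after their values were seen. The division of the lungs, members and lists were chosen with earlier results of these data known. The number of arrays limits the precision.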

Additional observations from a re-analysis of the deposited data

Results flagged for a closer look

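Single lungs stood far from the rest of their group in 24 of 280 groups of values. Chance alone gives about 1 in 20 for independent values. These values were not independent, since lists and their members were both counted and many genes were chosen for their differences. The count therefore cannot show an excess over chance. In lower-number CS lungs, F197 was high in heart muscle genes (list mean 6.97), brown fat genes (3.36), Hspb7 (5.72), Myl7 (9.37) and Sln (6.74) and low in Lockd (3.58). M121 was high in oesophageal genes (3.95), Krt14 (4.2), Ptcra (4.53), Dut (6.14) and Cebpa (4.95). M205 was high in liver genes (2.36) and Afp (3.73), and F195 in hypoxia targets (6.08).

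In higher-number CS lungs, M443 was high in oesophageal genes (4.19) and Cyp2f2 (8.16) and low in oncofetal genes (3.77). M447 was high in thymocyte genes (2.68) and low in macrophage genes (3.08) and Foxp2 (5.41). F444 was high in Reg3g (4.52) and low in Trim43c (3.2), and F445 was high in Car4 (4.74) and low in Mnd1 (1.63).

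Between CS and AIR lungs, the difference of lower-number minus higher-number lungs was itself different in limma at a false discovery rate of 10% for Insig1 (-1.31), Hdc (-1.47), Acoxl (-1.04), Tcf19 (0.93), S100a8 (-1.62), Klf4 (-1.05), Sftpd (-1.68) and Car4 (-2.41).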

How the results depend on the processing

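No paired analysis was possible because the lower-number and higher-number CS lungs are different fetuses and the labels name neither littermates nor other pairs. The medians of the mitosis, DNA replication, type II, secretory and cholesterol lists kept their sign in all 135 values under alternatives, and no named gene reversed. Counts moved more. With only probe sets of a CS mean above log2 3, 344 genes were lower and 1 probe set passed a false discovery rate of 10%, as did 1 without moderation of variances and 1 with 4 group means over all arrays, where 7 DNA replication genes passed. Once the heart muscle mean was a covariate, 7 DNA replication and 7 secretory genes passed. Without the 4 lungs high in other-tissue genes (chosen after seeing the data) 6 probe sets, 18 mitosis and 4 DNA replication genes did. A fold over 1.5 left 57 genes higher and 95 lower. In AIR lungs 9 probe sets passed with 4 group means. For the difference between CS and AIR, 10 passed with redundant probe sets kept, 53 with one probe set per gene, 12 with trend and robust moderation and 7 with sex as a covariate. With only the arrays of that sex, 2 passed in males and 0 in females. The cause was not tested.

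Leaving out 1 CS lung gave 437 to 715 genes higher, 604 to 776 lower and 0 to 3 probe sets at a false discovery rate of 10% (1 without M443, 2 without F202, 3 without F444). Mitosis kept 29 to 42 genes (median 0.43 to 0.57), DNA replication 5 to 14 (0.21 to 0.28, fewest without M443), type II 8 to 15 (-0.48 to -0.34), secretory 6 to 14 (-0.48 to -0.35, fewest without F445) and cholesterol 5 to 9 (-0.33 to -0.25, fewest without F444 or F445). Leaving out a lower-number AIR lung gave 641 to 722 genes higher, 296 to 356 lower and 1 to 5 probe sets (1 without M187, 5 without M141). For the difference between CS and AIR, leaving out a lower-number AIR or higher-number CS lung gave 522 to 678 genes higher, 876 to 1124 lower and 0 to 9 probe sets.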
